A study of Mus musculus with 8 samples.

Results

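Mature conventional natural killer (NK) cells were 418 of the 21482 cells kept from 6 single-cell libraries made from mouse liver with tumours, 1.95% of them. They were selected cell by cell on unique molecular identifiers (UMIs), each of which counts 1 captured transcript. A cell had to hold a UMI in at least 3 of the 8 NK genes Ncr1, Klrb1c, Klre1, Klra8, Klra4, Klra9, Eomes and Prf1, and a UMI in at least 1 of the 3 maturity genes S1pr5, Itgam and Klrg1. It had to hold none in Cxcr6, Cd3d, Cd3e, Cd3g, Cd79a, Lyz2 or C1qa, which mark ILC1-like cells, T cells, B cells and myeloid cells. The 444 cells that met every condition but held no UMI of the 3 maturity genes are called less mature NK cells, and the 862 cells of both kinds are called NK cells. Because transcripts are captured sparsely, a less mature cell by this definition may still express a maturity gene.

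Both groups of mice were male C57BL/6 animals that carried 2 floxed copies of Nr4a1, and both received the same plasmids by hydrodynamic tail vein injection at 8 to 10 weeks of age. The plasmids brought CRISPR-Cas9 with a guide against Trp53, a c-Myc transposon and the SB13 transposase into hepatocytes, and livers with hepatocellular carcinoma were taken 4 to 5 weeks later. In the mice labelled knockout, Cre was expressed from the Ncr1 locus (Ncr1iCre, Nr4a1fl/fl), so that deletion is directed to cells that express NKp46, the receptor that Ncr1 encodes. The control mice were Ncr1WT, Nr4a1fl/fl and had no Cre. The groups thus differ in Cre at the Ncr1 locus as well as in the intended deletion, and the 2 cannot be told apart here. Each group had 3 mRNA libraries; control 3 pooled 3 mice and knockout 3 pooled 2 mice, and the labels do not say which animals lie behind libraries 1 and 2. P-values therefore measure only the spread between libraries, part of which may be technical. Values are given in the order of the library numbers throughout.

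Conventional NK cells are innate lymphocytes that kill stressed or transformed cells with granules of perforin and granzymes. As they mature in the mouse they lose CD27, acquire CD11b (Itgam) and then KLRG1, and gain S1PR5, a receptor for sphingosine 1-phosphate that lets them leave the marrow and lymph nodes. T-bet and Zeb2 drive the late steps of this programme. The liver also holds ILC1, resident relatives of NK cells that keep CXCR6 and CD49a (Itga1).

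Controls 1, 2 and 3 gave 102, 50 and 159 mature NK cells, and knockouts 1, 2 and 3 gave 33, 12 and 62. Summed over these cells, the gene UMIs came to 543640, 209089 and 1119997 for the controls, and to 290375, 64697 and 512407 for the knockouts. Median depth per mature cell ranged from 3335.5 to 5377 UMIs. Knockout 2 stands apart from the other libraries. Its barcodes of 500 or more UMIs had a median mitochondrial share of 75.1%, where control 2 had 27.9% and the other 4 libraries 6.68% to 10.0%. No UMI of a gene among its 12 mature cells still allows up to 46.4 UMIs per 1000000 UMIs of those cells (CPM) by a floor of 3 counts, and 2.68 to 14.3 CPM in the other libraries, for counting error only. Pairs of libraries shared 0 to 15 cell barcodes. Each comparison is therefore also given without knockout 2.

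Of the 418 members, 306 (73.2%) had a UMI of Itgam, 173 (41.4%) of Klrg1 and 120 (28.7%) of S1pr5. Itgam alone qualified 39.7% of them, Klrg1 alone 67 cells and S1pr5 alone 36 cells, while 149 cells had at least 2 of the 3 genes and 32 had all 3. Among B cells, which should lack all 3, 64 of 3789 (1.69%) had such a UMI at a median depth of 2862 UMIs. These B cells were chosen by Cd79a, Cd79b and Ms4a1 and held no UMI of the 8 NK genes. The NK side of the rule left little at its edge. Of cells with a maturity gene and none of the 7 excluded genes, 24 had exactly 3 of the 8 NK genes and so lay just inside, and 11 had 2 and lay just outside. Far more cells lay beyond that edge, with 492 at none of the 8, and 288 cells with 3 or more NK genes and a maturity gene were removed for a UMI of an excluded gene.

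The defining markers of conventional NK cells were present. Klrb1c, which encodes NK1.1, stood at 625, 813 and 568 CPM in mature cells of the 3 controls, and the libraries labelled knockout had 599, 788 and 427 CPM. Eomes, the transcription factor that separates conventional NK cells from ILC1, ranged from 132 to 210.4 CPM in the controls and from 111 to 216 CPM in the libraries labelled knockout. Both genes belong to the rule, so these levels are a description. Tnfsf10 and Zfp683, ILC1 genes that the rule did not use, were low. Tnfsf10, which encodes the death ligand TRAIL, ranged from 3.90 to 23.2 CPM. Zfp683, which encodes the ILC1 factor Hobit, was at 0 in 5 of the 6 libraries and at 3.44 CPM in knockout 1. The whole list of 18 ILC1 and residency genes was not: it summed to 765 to 1646 CPM in mature cells. Less mature cells had 760 to 1548 CPM of the list. In the 53 ILC1-like cells with a Cxcr6 UMI, Tnfsf10 reached 187 and 195 CPM in controls 1 and 3, the libraries with the most such cells (18 and 28).

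Transcripts of other cell types were present among the members, at levels that differed by cell type and library. Of the 10 T cell genes listed as background, Trac stood at 5.85 to 20.7 CPM in mature cells, against 189 to 413 CPM in the T cells of the 5 libraries with T cell reads of it. Trbc2 was higher, at 124 to 243 CPM, and transcription of unrearranged Trbc segments is known in NK cells. The B cell marker Ms4a1 and the macrophage marker C1qb each had UMIs in control 3 alone. The 9 listed B cell genes together ranged from 30.9 to 164 CPM, and the 16 listed myeloid genes from 201 to 353 CPM. Hepatocyte transcripts varied most: the 16 listed genes summed to 579, 163 and 1888 CPM in the 3 controls, and the libraries labelled knockout had 58.5, 185 and 8727 CPM. Their part in the comparisons below was not tested.

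The first comparison asks which other transcripts accompany S1pr5, Itgam and Klrg1, by setting mature against less mature NK cells of the same library. Mature cells carried more transcript of the proteases Gzma and Cma1, the chemokine Ccl5 and the surface protein gene Ly6c2, and less of Emb and Tox. Of 5216 genes tested, with the genes of the selection rule set aside, 12 passed at an adjusted p under 0.05 (0.23%, edgeR quasi-likelihood test with library as a block): 10 were higher in mature cells (0.192%) and 2 lower (0.0383%). All 12 moved in the stated direction in 6 of 6 libraries. Unadjusted p was under 0.05 for 460 genes. The cells were split by 3 genes of the same profiles, so these p-values speak of transcripts that go with those genes in the same cells.

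Promoter sequence is shown for 3 of the called genes, because the T-box factors Eomes and T-bet and the E-box factor Zeb2 are known regulators of NK maturation. The sequences are RefSeq's for GRCm38.p6, matched to the 12 genes by symbol (8 had an entry), and run 5′ to 3′ from 250 bases before to 50 bases after the start on the gene's strand. Capitals mark the T-box core GGTGTG or its reverse complement CACACC, and the E-box CAGGTG or its reverse complement CACCTG, searched on both strands. Cma1 (chr14:55944626-55944925, minus strand) holds neither. Gzma (chr13:113100932-113101231, minus strand) holds 2 E-boxes. Emb (chr13:117220323-117220622, plus strand) holds 2 E-boxes and 1 T-box core, which overlaps the second E-box.
Cma1: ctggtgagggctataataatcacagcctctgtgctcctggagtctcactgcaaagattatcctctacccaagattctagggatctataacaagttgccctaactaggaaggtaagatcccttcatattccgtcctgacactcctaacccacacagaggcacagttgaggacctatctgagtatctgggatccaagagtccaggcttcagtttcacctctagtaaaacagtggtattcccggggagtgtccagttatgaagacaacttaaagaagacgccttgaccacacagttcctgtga
Gzma: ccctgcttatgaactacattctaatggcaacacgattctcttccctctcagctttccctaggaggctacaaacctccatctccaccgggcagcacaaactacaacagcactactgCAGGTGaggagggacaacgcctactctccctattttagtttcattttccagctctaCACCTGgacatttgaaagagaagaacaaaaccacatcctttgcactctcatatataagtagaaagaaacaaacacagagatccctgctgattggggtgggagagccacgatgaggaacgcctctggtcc
Emb: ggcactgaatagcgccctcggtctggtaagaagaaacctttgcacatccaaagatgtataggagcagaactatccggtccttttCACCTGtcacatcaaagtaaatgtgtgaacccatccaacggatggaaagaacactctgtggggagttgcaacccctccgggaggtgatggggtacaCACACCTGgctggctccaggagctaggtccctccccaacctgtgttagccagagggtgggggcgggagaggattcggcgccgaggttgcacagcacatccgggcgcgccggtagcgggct
Of the 8 genes with an entry, 4 held an E-box and 2 a T-box core in at least 1 promoter. Rap1gap2, Entpd1 and Ly6c2 have more than 1 promoter entry. Of all 32851 promoters of this length, counted singly, 20.2% held an E-box and 19.0% a T-box core. The counts by gene and by promoter are not alike and cannot be set against each other, and enrichment was not tested. A match is a match of letters only.

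Cma1, which encodes the serine protease mast cell chymase and is also expressed by late NK cells, differed most. In mature cells it was read at 88.3, 210.4 and 87.5 CPM in the 3 controls, with 72.3, 46.4 and 127 CPM in the libraries labelled knockout. Less mature cells had 11.0, 16.7 and 25.6 CPM and 7.43, 0 and 21.8 CPM. Every mature value exceeded every less mature one, with means of 105 ± 57.8 and 13.8 ± 9.50 CPM (SD, n = 6 libraries) and a log2 fold change of 2.55 (standard error, SE, 0.26, adjusted p = 3.66e-05, edgeR). In knockout 2 the values rest on 3 UMIs in mature and 0 in less mature cells. The gene was found in 46 of 159 mature and 14 of 191 less mature cells of control 3, and its level in T cells was at most 1.20 CPM in any library. T cells with a UMI of Prf1 or another NK gene of the rule were not among those T cells.

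Ly6c2, one of the genes of the surface protein Ly-6C, showed the same pattern. Its levels in mature cells were 169, 292 and 209 CPM in the controls and 158, 185 and 107 CPM in the libraries labelled knockout, and less mature cells had 22.0, 41.9 and 94.9 CPM and 0, 0 and 24.0 CPM. The 2 sets of libraries did not overlap (log2 fold change 2.31, SE 0.32, adjusted p = 0.000976, edgeR). Ly6c2 has a near-identical neighbour, Ly6c1, so reads may be split between them.

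The secreted and granule products were the most abundant of the called genes. Gzma, which encodes granzyme A, stood at 10845, 10158 and 10630.4 CPM in mature cells of the controls and at 11006, 8702 and 8257 CPM in the libraries labelled knockout. In less mature cells it stood at 3641, 3959 and 5759.6 CPM and at 7017, 5498 and 5009.8 CPM, below all mature values (log2 fold change 0.97, SE 0.12, adjusted p = 0.000202, edgeR). Ccl5, a chemokine for T cells and dendritic cells, averaged 7828 ± 1598 CPM in mature and 3666 ± 890.0 CPM in less mature cells, again without overlap (1.11, SE 0.12, adjusted p = 3.66e-05, edgeR). Both were read in most cells of either kind: Gzma in 150 of 159 mature and 155 of 191 less mature cells of control 3.

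Adhesion and signalling genes made up the rest of the higher set. Itgb2, the integrin chain that pairs with the CD11b chain of the rule gene Itgam, averaged 236 ± 82.9 CPM in mature and 119.8 ± 41.8 CPM in less mature cells (log2 fold change 0.93, SE 0.19, adjusted p = 0.0423, edgeR). Rap1b, a small GTPase that switches integrins on, stood at 388 ± 37.2 and 227 ± 35.8 CPM (0.75, SE 0.15). Rap1gap2, a GTPase-activating protein for Rap1 found in secretory cells, stood at 259.9 ± 104 and 127 ± 56.1 CPM (1.08, SE 0.19). A Rap GTPase, a protein that turns it off and an integrin chain were thus among the 10 higher genes. Entpd1, which encodes the ATP-degrading enzyme CD39, ranged from 50.7 to 170.0 CPM in mature and from 17.1 to 64.9 CPM in less mature cells (1.34, SE 0.25). S100a6, a calcium-binding protein, averaged 1643 ± 333 and 865 ± 297 CPM (0.97, SE 0.15), and Gm4956, a predicted gene, 229 ± 90.8 and 70.7 ± 39.5 CPM (1.52, SE 0.23). The adjusted p of these 6 genes lay between 0.00299 and 0.0423 (edgeR).

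Emb and Tox were lower in mature cells. Emb, which encodes the adhesion glycoprotein embigin, was read at 88.3, 81.3 and 129 CPM in mature cells of the controls and at 145, 46.4 and 48.8 CPM in the libraries labelled knockout. Less mature cells had 118, 280.4 and 248 CPM and 230.2, 173 and 93.9 CPM, so mature cells were lower within each library although the 2 ranges overlapped (log2 fold change -0.97, SE 0.19, adjusted p = 0.0285, edgeR). Tox, a nuclear factor needed for early NK development, averaged 203 ± 95.3 CPM in mature and 370.1 ± 151 CPM in less mature cells (-0.90, SE 0.18, adjusted p = 0.0422, edgeR). In control 1 its 2 levels were 276 and 277 CPM, so the difference rests on the other 5 libraries.

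**Figure D1:**
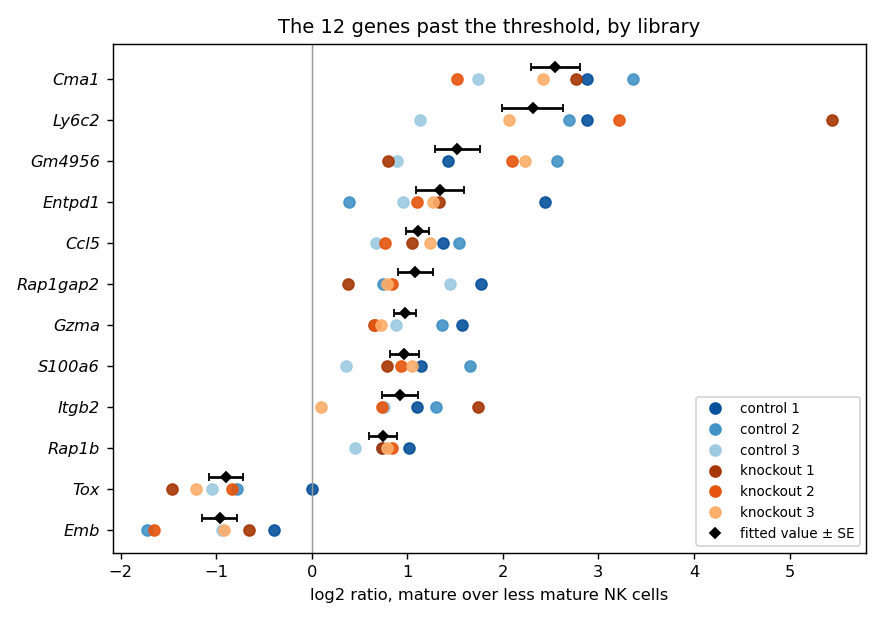
Log2 ratio of mature to less mature NK cells (x axis, 1 UMI added to each sum) for the 12 genes that passed (y axis), with 1 coloured point per library and a black diamond for the fitted log2 fold change ± SE. Points for the 10 higher genes lie right of 0 in each of the 6 libraries, and Tox in control 1 lies at 0.

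How far the fold changes depend on depth was examined by thinning cells and by matching them on UMI count. Cells kept the class set by all their UMIs, so neither shows how far the split itself depends on depth. With each cell thinned to 1000 UMIs, 21 of 755 genes passed, and the fold changes of Ly6c2 (1.69), Gzma (1.02) and Ccl5 (1.13) compare with 2.31, 0.97 and 1.11 in whole cells; Cma1, Emb and Entpd1 were then too sparse to test. With less mature cells matched on UMI count to the mature cells of their library, which left 147 pairs in control 3 and 18 in knockout 1 and dropped knockout 2 for too few pairs, Ly6c2 stood at 1.81, Gzma at 0.77 and Ccl5 at 0.85. S100a6 stood at 0.56 thinned and 0.69 matched, Rap1gap2 at 0.71 and 0.96, and Tox at -0.96 and -0.62. Each called gene kept its sign in every setting that could test it. Passing the threshold was less stable: of 22 other settings, Itgb2 passed in 7, Tox and Rap1b in 9 each, and Ccl5 and Gzma in 20 each. Without knockout 2, 12 genes passed, 10 of them the same genes. Without knockout 1, 7 passed, and without both libraries numbered 2 only Ccl5, Cma1 and Gzma did. In the 3 control libraries alone 13 passed, 7 of the 12 among them, and in the 3 libraries labelled knockout alone 0 of 4460 passed (edgeR, 129 at an unadjusted p under 0.05), with all 12 signs as before. Removing cells with a UMI of Trac, Trbc1 or Trbc2 left 127 mature and 92 less mature cells, 1061 genes tested and no call (edgeR, 12 at an unadjusted p under 0.05); removing cells with Trac alone left 392 and 423 cells and 8 calls, all among the 12. Both removals were chosen after the data were seen, and the first takes out most NK cells.

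The members also differed among themselves in the number of maturity genes they held. Cma1 in cells with none, 1 and at least 2 of the 3 genes was 11.0, 30.0 and 181 CPM in control 1, 16.7, 155 and 367 CPM in control 2, and 25.6, 52.6 and 147 CPM in control 3. In knockout 1 it was 7.43, 42.9 and 294 CPM, in knockout 2 0, 0 and 82.5 CPM, and in knockout 3 21.8, 114 and 138 CPM. Cells with 2 or more maturity genes had the highest level in all 6 libraries. Ly6c2 followed the same order in all 6, from a mean of 30.5 through 109.7 to 405 CPM. Ccl5, Gzma and Emb did so in some libraries only, and in knockout 3 Gzma was 4462 CPM in the 22 cells with at least 2 maturity genes against 12692 CPM in those with 1. A cell with more detected genes is often a deeper one, and these levels have no test.

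The single maturity gene that qualified a cell also went with different transcripts. Gm4956 averaged 296 ± 198 CPM over 6 libraries in cells with Itgam alone, against 50.2 ± 33.1 CPM over 5 libraries with Klrg1 alone and 18.8 ± 32.6 CPM over 3 libraries with S1pr5 alone. Gzma was 8091 ± 2427, 12472 ± 1715 and 11245 ± 6224 CPM in the same classes. Only libraries with at least 5 such cells were used (66 cells with Klrg1 alone and 31 with S1pr5 alone), and the spreads are wide.

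**Figure D2:**
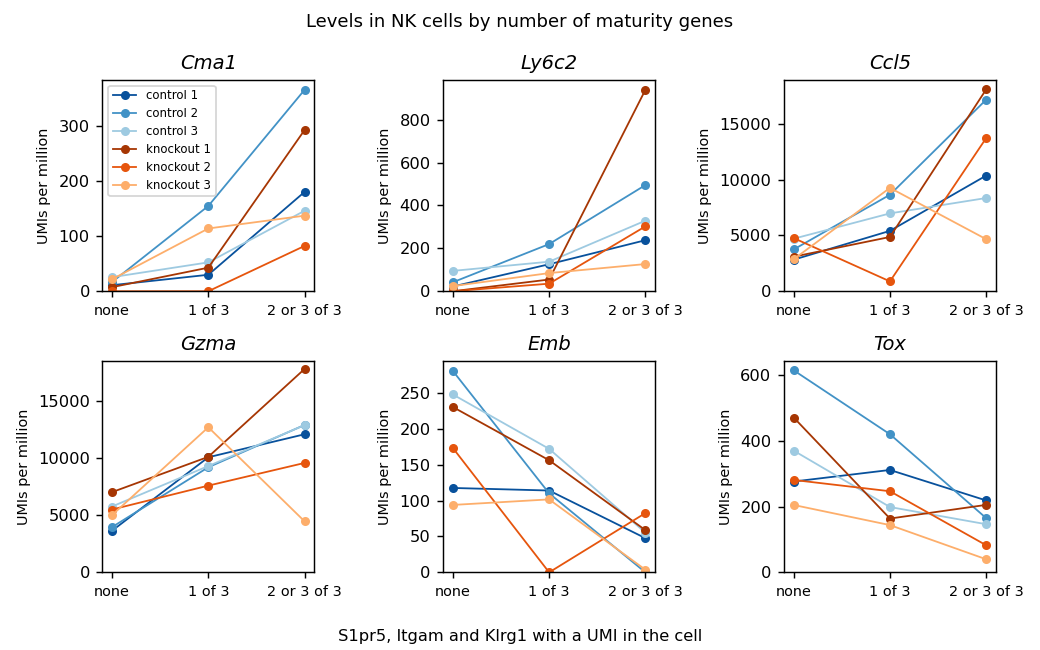
Level (y axis, CPM) of 6 called genes in NK cells with a UMI of none, 1, or 2 to 3 of S1pr5, Itgam and Klrg1 (x axis), with 1 line per library. Cma1 and Ly6c2 are highest in the cells with 2 or 3 maturity genes in all 6 libraries, while Gzma in knockout 3 is 4462 there and 12692 in cells with 1.

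The lists of related genes, chosen with earlier results of these data known, are described by counts and medians beside those of all genes tested, whose median log2 fold change was -0.01 with 48.4% above 0. Of the 18 late maturation genes tested, 16 lay above 0, with a median of 0.62, and 4 passed: Cma1, Ly6c2, S100a6 and Rap1gap2. Zeb2, the repressor that carries NK cells through the last maturation steps, was read at 454, 512 and 463 CPM in mature cells of the controls and at 238, 1036 and 312 CPM in the libraries labelled knockout, and less mature cells had 154, 389 and 209.7 CPM and 182, 43.3 and 164 CPM. Mature cells had more in 6 of 6 libraries, at a log2 fold change of 1.12 (SE 0.25) that missed the threshold (adjusted p = 0.0808, edgeR). Without knockout 2 the value was 0.91 (adjusted p = 0.0497), and without any other single library the adjusted p lay between 0.0877 and 0.305 (edgeR).

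Of 15 cytotoxic effector genes tested, 12 lay above 0 (median 0.36) and 1 passed, Gzma. Nkg7, a granule membrane protein, was next by p at 2258 ± 449.7 and 1474 ± 319 CPM (0.59, SE 0.15, adjusted p = 0.143, edgeR). Prf1, the pore-forming perforin and a gene of the rule, stood at 805 ± 139.6 CPM in mature and 536 ± 187 CPM in less mature cells and was higher in mature cells of 6 of 6 libraries, as a description. Of 15 migration genes, 12 lay above 0 (median 0.33); Itgb2 passed, and Itga4, the integrin chain that binds VCAM-1, stood at 769 ± 272 and 546 ± 226 CPM (0.51, SE 0.15, adjusted p = 0.244, edgeR). Among 17 activating receptors and adaptors, Itgb2 passed and the adaptor Tyrobp stood at 0.59 (SE 0.15, adjusted p = 0.152, edgeR). Among 12 inhibitory receptors and checkpoints Entpd1 passed, and Klra3, a Ly49 receptor with near-identical relatives, stood at 0.49 (SE 0.21).

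Early-stage genes were less uniform. Of 15 tested, 10 lay below 0 (median -0.08), and Emb was the one that passed. Xcl1, the chemokine that draws type 1 dendritic cells, was read at 802, 187 and 709 CPM in mature cells of the controls and at 1174, 185 and 470.3 CPM in the libraries labelled knockout, against 1525, 724 and 1249.8 CPM and 1132, 498 and 639.6 CPM in less mature cells. Knockout 1 was the one library with more in mature cells (-0.83, SE 0.19, adjusted p = 0.0967, edgeR). Cd27, the receptor whose loss marks maturation, ranged from 23.9 to 52.6 CPM in mature and from 40.4 to 108 CPM in less mature cells.

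All 17 genes of ribosome biogenesis tested lay below 0, with a median of -0.51; 9 had an unadjusted p under 0.05 and none passed (edgeR). Mybbp1a, which acts in the nucleolus, stood at 56.0 ± 35.1 CPM in mature and 91.1 ± 55.5 CPM in less mature cells (-1.04, SE 0.26, adjusted p = 0.143, edgeR). By library, mature cells were lower in 17, 14 and 15 of the 17 genes in the 3 controls, with 9, 5 and 16 genes for the libraries labelled knockout. Most of the list was thus lower in mature cells of 4 libraries, but not in knockout 2, and knockout 1 was close to even. Of 13 heat shock chaperones 10 lay below 0 (median -0.20), and of 15 genes of glycolysis and hypoxia 12 did (median -0.16); none passed in either list. Cacybp, a chaperone-binding protein, stood at -0.49 (SE 0.19), and the glycolytic gene Gpi1 at -0.27 (SE 0.18).

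The remaining lists lay near the level of all genes. Of 23 NK transcription factors 15 lay above 0 (median 0.09), with Tox lower as given. Of 16 cytokine receptor and STAT genes 10 lay above 0 (median 0.14), among them Il18rap (0.55, SE 0.18) and Il12rb2 (0.50, SE 0.17), chains of the IL-18 and IL-12 receptors that did not pass. Proliferation genes had a median of 0.09, with Mcm2 at -0.64 (SE 0.27) and Mcm6 at -0.41 (SE 0.20). Interferon response genes had a median of -0.10, with Bst2 at -0.44 (SE 0.18). Immediate early genes had a median of 0.07, with Btg2 at 0.32 (SE 0.16) and Tnfaip3 at 0.35 (SE 0.23). The p53 list had a median of -0.01, with Bax at -0.28 (SE 0.16). Rgs2 of the residency list stood at 0.70 (SE 0.28) and P4ha1 of the hypoxia list at -0.60 (SE 0.27). Nr4a1 stood at -0.32 (SE 0.24) and turned to 0.27 in the libraries labelled knockout alone. None of these passed (edgeR).

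**Figure D3:**
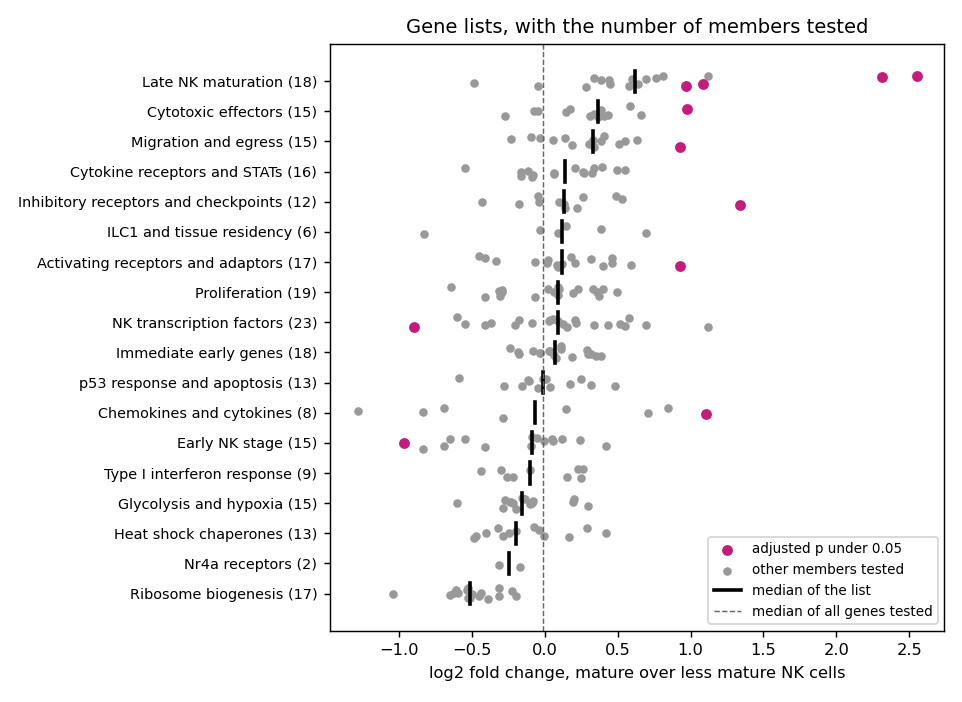
Log2 fold change of mature against less mature NK cells (x axis) for each gene of the 18 lists (y axis, number of members tested in brackets), with list medians as black bars and genes that passed in magenta. Late maturation genes lie furthest right (median 0.62), and all 17 ribosome biogenesis genes lie left of 0 (median -0.51).

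The second comparison asks whether the share of NK cells that are mature differs between the libraries labelled knockout and the controls. The share was 49.5%, 46.7% and 45.4% in the 3 controls. The libraries labelled knockout had 50.8%, 46.2% and 57.4%, with exact 95% binomial intervals from 26.6% to 66.6% in knockout 2 and from 47.5% to 66.9% in knockout 3. The groups overlapped. The controls averaged 47.2 ± 2.09% and the other group 51.4 ± 5.66% (SD, n = 3 libraries per group), which differ by 4.22 points (exact two-sided permutation test, p = 0.3, where 3 against 3 libraries cannot go below 0.1). Thinned to 1000 UMIs per cell, the shares fell to 21.7%, 24.0% and 19.6% in the controls and to 12.5%, 31.8% and 24.8% in the libraries labelled knockout, with 3, 7, 3, 1, 4 and 3 NK cells left out as shallower. Here the maturity genes were read again in the thinned counts, while the NK cells stayed as chosen from all UMIs. The difference was then 1.27 points (exact permutation test, p = 0.8). Without knockout 2 and unthinned it was 6.86 points (exact permutation test, p = 0.2).

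Hashtags split the pooled libraries into mice, whose shares overlapped between the groups. In control 3 the mature share was 52.9% (36 of 68 NK cells), 47.8% (43 of 90) and 36.9% (41 of 111). In knockout 3 it was 44.2% (23 of 52) and 69.0% (29 of 42).

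**Figure D4:**
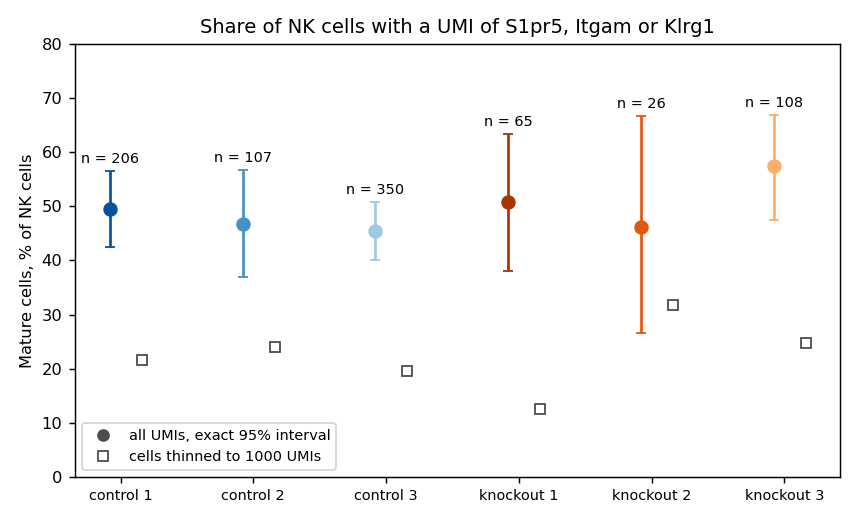
Mature cells as a percentage of NK cells (y axis) in each of the 6 libraries (x axis); filled points carry exact 95% binomial intervals, n is the number of NK cells, and open squares give the share after thinning. The 3 control points lie between 45.4% and 49.5%, and overlap the libraries labelled knockout, which lie between 46.2% and 57.4%.

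The third comparison sets the mature cells of the libraries labelled knockout against those of the controls. Nr4a1, which encodes the nuclear receptor Nur77, was read at 47.8, 33.5 and 33.0 CPM in mature cells of the 3 controls, and the libraries labelled knockout had 152, 0 and 54.6 CPM. Knockouts 1 and 3 lay above all controls and knockout 2 had no UMI in 12 cells (log2 fold change 1.15, SE 0.52, adjusted p = 0.985, edgeR). Cells with an Nr4a1 UMI numbered 9 of 33 in knockout 1, where 1 cell held 19 of the 44 UMIs, and 13 of 62 in knockout 3. Reads come from transcript 3′ ends, and no label gives the floxed part of Nr4a1, so these values are no test of deletion or of the group labels, which are used as given. Nr4a2 stood at 66.2, 43.0 and 87.5 CPM and 99.9, 0 and 52.7 CPM (-0.09, SE 0.48). Nr4a3 ranged from 7.14 to 14.3 CPM in the controls and from 9.76 to 62.0 CPM in the libraries labelled knockout, and was too low to test.

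Ncr1, whose locus drives Cre and which is among the 8 NK genes of the rule, was read at 831, 760.4 and 638 CPM in the controls and at 224, 603 and 201 CPM in the libraries labelled knockout. Every control value exceeded every value of the other group. In the pooled libraries, the 3 control mice had 641, 621 and 548 CPM in their mature cells and the 2 knockout mice 111 and 254 CPM, without overlap. Less mature cells showed 496, 628 and 629.9 CPM against 149, 649 and 218 CPM, where knockout 2 was the highest of all. An Ncr1 UMI was present in 94.1%, 90.0% and 93.1% of mature control cells, as against 63.6%, 83.3% and 66.1% in the other group. Since Ncr1 helped to choose the cells, these are given as descriptions without a p-value.

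Among the other 10 genes that a member could hold under the rule, 3 were lower in every library labelled knockout than in every control. The same held for 5.55% of the 5568 genes tested between genotypes, a set that includes these 10 genes and Ncr1. The 10 genes also helped to choose the cells, so their values are given as descriptions without p-values. S1pr5, the egress receptor, stood at 68.1, 76.5 and 67.0 CPM in the controls and at 41.3, 61.8 and 44.9 CPM in the libraries labelled knockout. Klre1, an NK lectin-like receptor, stood at 1067, 866 and 899 CPM and at 789, 572 and 628 CPM. Klra9, a Ly49 receptor with near-identical relatives, stood at 395, 344 and 339 CPM and at 220.4, 61.8 and 263 CPM. The groups of the other 7 overlapped. Itgam stood at 263, 320.4 and 180.4 CPM and at 145, 371 and 142 CPM, Klrg1 at 121, 86.1 and 82.1 CPM and at 110.2, 201 and 113 CPM, and Prf1 at 791, 770.0 and 694 CPM and at 823, 1067 and 683 CPM.

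Across 5568 genes tested, 0 passed (0%; edgeR quasi-likelihood test, 252 at an unadjusted p under 0.05), and DESeq2 also called 0 (93 unadjusted). A further fit took the hashtagged mice of the libraries numbered 3 as units, beside the whole libraries numbered 1 and 2. Among these 9 units 0 genes passed, with mice of the same pool counted as independent. With the replicate number as a block 0 passed (262 unadjusted). On simulated counts the genotype test called 14 of 93 genes with a true log2 fold change of 1 and 81 of 90 with 2. Most changes of the smaller size would thus be missed. Levels of the 2 groups did not overlap for 194 genes higher in the libraries labelled knockout (3.48%) and 309 lower (5.55%). Without knockout 2, 0 genes passed (edgeR, 486 unadjusted). Without knockout 3, 1 gene passed, the chemokine gene Cxcl10. In mature cells it was counted with 117 UMIs in knockout 1, 91 of them in 1 cell, and with 48 UMIs in knockout 2, all in 1 cell. Cxcl10 lies outside the rule for named genes and was chosen after its values were seen.

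The 10 genes with the smallest p were led by Pam, which encodes an enzyme that amidates peptides, at 92.0, 134 and 64.3 CPM in the controls and 10.3, 15.5 and 25.4 CPM in the libraries labelled knockout. The groups were apart (log2 fold change -2.15, SE 0.45, adjusted p = 0.985, edgeR). Cd55, the complement decay-accelerating factor, stood at 60.7, 62.2 and 86.6 CPM and at 27.6, 0 and 15.6 CPM (-1.88, SE 0.44), and Ppp1r3b, a glycogen-targeting phosphatase subunit, at 1.84, 4.78 and 8.93 CPM and at 31.0, 30.9 and 33.2 CPM (2.39, SE 0.53). None of the 10 passed. Fasn, fatty acid synthase, averaged 20.5 ± 5.76 and 61.4 ± 26.7 CPM (1.63, SE 0.44). Dlat, a subunit of pyruvate dehydrogenase, averaged 23.5 ± 4.58 and 60.8 ± 23.4 CPM (1.65, SE 0.40), and Pcyt1a, the rate-limiting enzyme of phosphatidylcholine synthesis, 21.2 ± 3.94 and 47.7 ± 15.2 CPM (1.39, SE 0.37). The mitochondrial import gene Timm8a1 gave 1.79 (SE 0.43) and Znrd2 gave 1.61 (SE 0.43). The last 2 genes are Vapb and Larp1b. Of the 10, Larp1b was the one whose groups overlapped. In knockout 2 these 10 genes had from 0 UMIs (Cd55) to 4 (Fasn and Timm8a1), with 1 for Pam, 2 for Ppp1r3b and 3 for Dlat. Ppp1r3b was also sparse elsewhere, with 1, 1 and 10 UMIs in the controls and 9 and 17 in knockouts 1 and 3.

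Of the 12 genes that separated mature from less mature cells, 11 had a log2 fold change below 0 between the genotypes, 3 with groups apart, and none passed (edgeR). Groups were apart and lower for 5.55% of the 5568 genes tested. The same mature cells enter both comparisons. Tox stood at 276, 354 and 179 CPM in the controls and 169, 155 and 87.8 CPM in the libraries labelled knockout (-0.97, SE 0.33, unadjusted p = 0.012, adjusted p = 0.985, edgeR). Gm4956 stood at 254, 392 and 240.2 CPM and at 145, 170.0 and 172 CPM (-0.79, SE 0.30), though the mice of control 3 ranged from 93.7 to 635 CPM and those of knockout 3 had 127 and 195 CPM. Rap1b stood at 430.4, 435 and 387 CPM and at 355, 371 and 349 CPM (-0.18, SE 0.26). Rap1gap2 gave -0.79 (SE 0.33) with overlapping groups, Cma1 -0.29 (SE 0.43) and Gzma -0.15 (SE 0.23), while S100a6 gave 0.31 (SE 0.26).

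**Figure D5:**
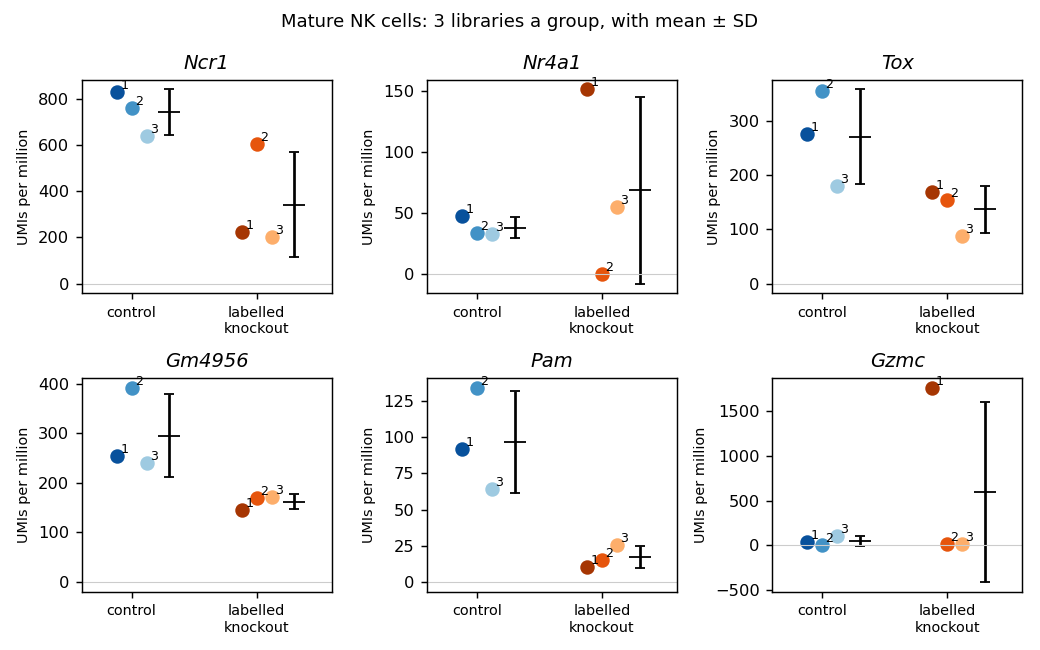
Levels in mature NK cells (y axis, CPM) of 6 genes in the 3 control and the 3 libraries labelled knockout (x axis), numbered by library, with group mean ± SD. Ncr1, Tox, Gm4956 and Pam show groups that do not overlap, and the mean of Gzmc rests on knockout 1 at 1763; none of the genes tested passed.

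Lists between the genotypes had no gene that passed, and the medians are set beside 0.02 for all genes, 52.0% of which lay above 0. Of 15 early-stage genes 13 lay below 0 (median -0.25), 4 of them with groups apart. Groups were apart and lower for 5.55% of the 5568 genes tested. Of 18 activating receptors and adaptors 15 lay below 0 (median -0.20), with the adaptor Fcer1g at 2191, 2167 and 1892 CPM and at 2015, 1082 and 1376 CPM (-0.43, SE 0.27). Migration genes (median -0.25, 11 of 15 below 0) and NK transcription factors (median -0.21, 16 of 23 below 0) were as low. Cytokine receptors and STATs had a median of -0.13, and inhibitory receptors and proliferation genes -0.10 each. Late maturation genes (median -0.07, 12 of 18 below 0) and cytotoxic effectors (median -0.01, 8 of 15 below 0) lay near all genes. Il18r1, a chain of the IL-18 receptor, stood at 246, 344 and 242 CPM and at 203, 201 and 131 CPM, with groups apart (-0.63, SE 0.28).

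The medians of 4 growth and stress lists lay above that of all genes. So did those of ILC1 and residency (0.51, 6 tested), Nr4a (0.53, 2 tested) and interferon response genes (0.25). Immediate early genes (0.23) and chemokines and cytokines (0.21) did so too, and the shift was thus not particular to growth and stress. Of 17 ribosome biogenesis genes 15 lay above 0 (median 0.52), 4 with groups apart. Groups were apart and higher for 3.48% of the 5568 genes tested. Mybbp1a averaged 32.3 ± 15.1 and 79.8 ± 33.9 CPM (1.36, SE 0.45). Of 15 glycolysis and hypoxia genes 12 lay above 0 (median 0.53), with Pkm, pyruvate kinase, at 229.8 ± 88.6 and 376 ± 187 CPM (0.80, SE 0.42). Of 14 p53 genes 11 lay above 0 (median 0.48). Cdkn1a, the cell cycle inhibitor p21, was read at 1.84, 9.57 and 26.8 CPM and at 62.0, 46.4 and 41.0 CPM, with groups apart (1.66, SE 0.57). Of 13 chaperones 11 lay above 0 (median 0.30), with Hspd1 at 291, 148 and 262 CPM in the controls and at 358, 309 and 929 CPM in the libraries labelled knockout, with groups apart (1.30, SE 0.45). All 7 hepatocyte genes tested also lay above 0 (median 1.47), and the 16 listed summed to 8727 CPM in knockout 3, the highest of the 6 libraries. That library also had the highest Hspd1 and Pkm, and the part of hepatocyte transcripts in these values was not tested.

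Of the remaining list leaders, Atf3, a stress-induced factor, stood at 43.3 ± 44.5 and 148 ± 94.3 CPM (1.77, SE 0.57), and Isg15, an interferon-induced modifier, at 70.2 ± 44.8 and 157 ± 57.6 CPM (1.05, SE 0.42). Mcm6, a replication helicase subunit, stood at 70.9 ± 36.7 and 135 ± 19.7 CPM with groups apart (0.81, SE 0.36), and Inpp4b at 32.7 ± 11.8 and 110.4 ± 77.0 CPM (1.35, SE 0.55). Ccl4 was read at 675, 1071 and 569.6 CPM and at 2738, 386 and 1087 CPM, where knockout 2 lay below all controls (0.94, SE 0.51). Gzmc, another granzyme, gave the largest value (3.41, SE 1.24) from 38.6, 4.78 and 105 CPM and 1763, 15.5 and 17.6 CPM. A single cell of knockout 1 held 506 of its 512 Gzmc UMIs, and without that library the value was -1.71. None of these passed (edgeR, adjusted p = 0.985). Serpine2 and Crtam were too low to test in mature cells: Serpine2 had 4, 0 and 11 UMIs in the controls against 18, 0 and 13 for the libraries labelled knockout, and Crtam had 16, 4 and 35 against 0, 1 and 11.

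The last comparison tested whether the difference between genotypes itself differed between mature and less mature cells. Of 6424 genes, 0 passed (0%; edgeR interaction test, 154 at an unadjusted p under 0.05; also 0 without knockout 2, with 285). On simulated counts this test called 0 of 92 genes with a true log2 fold change of 1 and 5 of 98 with 2. A count of 0 therefore cannot show that differences of that size are absent. The 3 smallest p belonged to genes of other tissues: Fabp6, an intestinal bile acid carrier (-4.15, SE 0.77), and the major urinary protein genes Mup20 (3.72, SE 0.68) and Mup3 (3.50, SE 0.67), products of hepatocytes with near-identical relatives, each with adjusted p = 0.343 (edgeR). In knockout 3, 1 less mature cell held 922 of 927 Fabp6 UMIs, and 1 mature cell held 227 of 248 Mup20 UMIs. No gene of the NK lists was among them. The number of genes that passed was 41 without control 3, 3 without control 1 and 1, Gzmc, without knockout 3.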

How the data were processed

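Droplet single-cell RNA was measured in 6 mRNA libraries with 10x 3′ v3.1 chemistry, per the labels' protocols. The authors deposited unnormalized UMI counts for each barcode and gene, from Cell Ranger 7.0.1 (libraries 1 and 2) and 9.0.1 (libraries 3), per the file headers; the submitters' processing notes name 9.0.1 and GRCm39. Barcodes were kept with at least 500 gene UMIs, 300 genes and at most 20% mitochondrial UMIs. Members were then chosen as the report states. The members and the gene lists were chosen with earlier results of these data known. No doublet caller was run on the members; hashtags marked 5 mature cells as multiplets, and an alternative removes them and another removes the 5% of cells with the highest UMI counts in each library.

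UMIs were summed per library and class (at least 5 cells) and tested with the edgeR 4.0.16 quasi-likelihood test (two-sided, with TMM scaling and the filterByExpr filter, p adjusted over all genes tested by Benjamini-Hochberg, threshold 0.05) in R 4.3.3. Each SE was taken as the size of the log2 fold change over the root of its F statistic. Mature against less mature cells and the interaction used the library as a block; genotypes were compared without a block. Same-numbered libraries deviated together (correlations of 0.118, 0.199 and 0.282 over 5568 genes). The genotype values given are still those without a block, and a block by replicate number was run as an alternative. Shares were tested with exact two-sided permutation tests. CPM is UMIs per 1000000 UMIs of the class. The tests were run first on simulated counts with true log2 fold changes of 1 or 2 in size. The genotype test called 14 of 93 genes at 1 and 81 of 90 at 2. The maturity test called 41 of 90 and 86 of 86, and the interaction test 0 of 92 and 5 of 98. Alternatives were DESeq2 1.42.0, RLE scaling, no filter on low counts, each library left out, both libraries numbered 2 left out, at least 4 NK genes, at least 2 maturity genes, at most 10% mitochondrial UMIs, thinning, depth matching and mice as units.

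Named genes were, between genotypes, Nr4a1, Nr4a2, Nr4a3, 6 rule genes as values, the genes that passed or the 10 smallest p, and per list, the 1 with the lowest p. Between maturity classes they were the genes that passed (up to 10 per direction) and, per list, the 2 with the lowest p, and for the interaction the 3 smallest p. Some of these are not reported here.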

Additional observations from a re-analysis of the deposited data

Results flagged for a closer look

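In knockout 2 the log2 ratio of mature to less mature cells for Zeb2 was 4.02, far above the other 5 libraries, which lay between 0.38 and 1.55. Zeb2 was 1 of 33 genes whose 6 library ratios were examined for a value far from the rest, and chance marks about 1 in 20 such sets. Knockout 2 had 12 mature cells with 67 Zeb2 UMIs, 30 of them in 1 cell, and 14 less mature cells with 2 UMIs. The ratio adds 1 UMI to each sum.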

How the results depend on the processing

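The count of genes between mature and less mature cells, 12, ranged from 7 (without knockout 1) to 12 leaving out 1 library, and all 12 genes kept their sign in every setting that tested them. It was 51 with no filter on low counts, 3 without both libraries numbered 2, 21 thinned, 21 in DESeq2, 27 with at least 2 maturity genes, 7 at a mitochondrial limit of 10%, 25 without the 5% of cells of highest UMI count, 3 with no library block, 0 in the libraries labelled knockout alone, and 0 without cells with a Trac, Trbc1 or Trbc2 UMI. Between genotypes the count of 0 became 183 with no filter on low counts, of which 130 were not tested otherwise (median 64.5 UMIs in all), and ranged from 0 to 1 leaving out 1 library (1 without knockout 3). For the interaction it became 10 with no filter, 3 with at least 4 NK genes, and 0 to 41 leaving out 1 library. The difference in mature share ranged from 1.24 to 6.86 points leaving out 1 library and was 8.99 points with at least 4 NK genes (exact permutation test, p = 0.1, the smallest possible). The replicate block changed no call: 0 genes passed between genotypes, and the share differed by 4.22 points (exact sign-flip test, p = 0.5). Signs that turned were those of Ccl4 between genotypes (-0.76 with at least 2 maturity genes, -0.26 without cells with T cell receptor UMIs), Gzmc (-1.71 without knockout 1, up to 4.58 leaving out 1 library), Nr4a2 (-0.61 to 0.22 leaving out 1 library, with 0.22 without control 3, 0.14 without knockout 2, 0.02 without knockout 3, 0.11 without the deepest cells, 0.29 without cells with Trac), Nr4a1 between maturity classes (0.27 in the libraries labelled knockout alone), and, in the interaction without knockout 3, Fabp6 (0.31; down to -4.36 without another library), Mup20 (-0.24; up to 3.79) and Mup3 (-0.28; up to 3.63), with Mup20 (-1.81) and Mup3 (-2.78) also turning without cells with T cell receptor UMIs. The causes were not tested. The 2 removals of cells with T cell receptor UMIs were added after the data were seen. With 12 to 159 mature cells per library, genes under about the floors given are not resolved.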
